A study of Mus musculus with 2 samples.

Results

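Growth hormone, prolactin, the glycoprotein hormones and proopiomelanocortin are made by cells of the anterior pituitary, and transcripts of several of them were measurable in RNA prepared from mouse cochleae. The 10 genes described here were Gh, Prl, Tshb, Ghrhr and Pou1f1 of the somatotroph, lactotroph and thyrotroph lineages, Cga, Lhb and Fshb of the gonadotroph lineage (Cga is shared with thyrotrophs), and Pomc and Tbx19 of the corticotroph lineage. They were chosen by name, as the non-control spots whose gene name on the array equals a member, and with earlier results of these arrays known. All 10 were represented, by 14 of 56605 probes, 6 genes by 1 probe and 4 genes by 2 probes.

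The study compared cochlear RNA of female C57BL/6 mice aged 7 weeks. The noise sample was taken 3 hours after an exposure to intense noise that lasted 2 hours, and the baseline sample came from mice with no exposure. Each group had 1 array, so every difference below lies between 2 samples, has no replicate check and was not tested across animals. The sources used here do not say how many mice gave each sample.

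The hormones of the pituitary are made by specialised cell types. Somatotrophs make growth hormone, lactotrophs prolactin and thyrotrophs thyrotropin, and all of them depend on the transcription factor POU1F1 (Pit-1). Gonadotrophs make luteinizing and follicle-stimulating hormone. These and thyrotropin pair the common alpha subunit, encoded by Cga, with a beta subunit of their own, encoded by Lhb, Fshb or Tshb. Corticotrophs and melanotrophs make proopiomelanocortin, the precursor of corticotropin, melanocyte-stimulating hormone and beta-endorphin, under the factor TBX19 (Tpit).

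The probe letters are shown first because they set what each signal can report. The Gh probe (chr11:106162492-106162735, mm9, minus orientation) covers 244 genomic bases with 60 letters and therefore crosses an intron, as does the Lhb probe (chr7:52676746-52676958, plus), covering 213. The Pomc probe (chr12:3960413-3960472, plus) runs over the stop codon of the coding sequence, which is in capitals. No letters are marked in the Gh and Lhb probes.
Gh: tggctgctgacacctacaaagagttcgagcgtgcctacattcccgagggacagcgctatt
Lhb: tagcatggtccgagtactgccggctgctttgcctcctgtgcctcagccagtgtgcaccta
Pomc: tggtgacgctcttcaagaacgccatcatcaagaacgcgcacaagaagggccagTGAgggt

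The Prl probe (chr13:27156985-27157044, mm9, plus) and the Cga probe (chr4:34854544-34854603, plus) hold the letters AATAAA, those of the polyadenylation signal, near their 3' ends. Their last 30 bases are given with these letters in capitals, letters that 9.77% of the 56605 probes hold. For Ghrhr, the last 30 bases of the probe that was measurable (chr6:55332782-55332841, plus) are given with a run of alternating T and G in capitals. The run TGTGTGTGTG was present in 0.277% of probes.
Prl: gcaattggtctcctcttaaatAATAAAaac
Cga: gtatttaccacggttccgtcagaAATAAAg
Ghrhr: ggaaatagaaaagtgtgtaTGTGTGTGTGT

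Signals are the scanner software's processed signals on a linear scale, and the error beside each is that software's own estimate for the spot, not a replicate error. Log2 ratios are noise minus baseline after each array was divided by its own 75th percentile, which was 315.9 after noise and 278.3 at baseline. Repeat spots alone gave a log2 ratio an SD of 0.069 (296 probes), and different probes of 1 gene differed in their log2 ratio with a pooled SD of 0.27 (9350 genes). Both SDs come from the same 2 arrays and hold no variation between animals. A probe counted as measured where the software called it well above background. A size rule of 2-fold takes the place of a test.

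The hormone genes split into a group that was much lower after noise and a group that was near background or similar on both. Of the 6 members measured on both arrays, Prl, Cga, Gh and Pomc were at least 2-fold lower after noise, against 1.25% of the 26533 genes measured on both arrays. None was at least 2-fold higher, against 0.611% of those genes. These ratios helped to choose the members, so the counts describe them and support nothing further. The remaining 4 members passed the background criterion on 1 array (Tshb, Fshb and Tbx19) or on neither (Pou1f1). In bulk RNA, fewer cells of a type and less RNA per cell cannot be told apart.

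**Figure D1:**
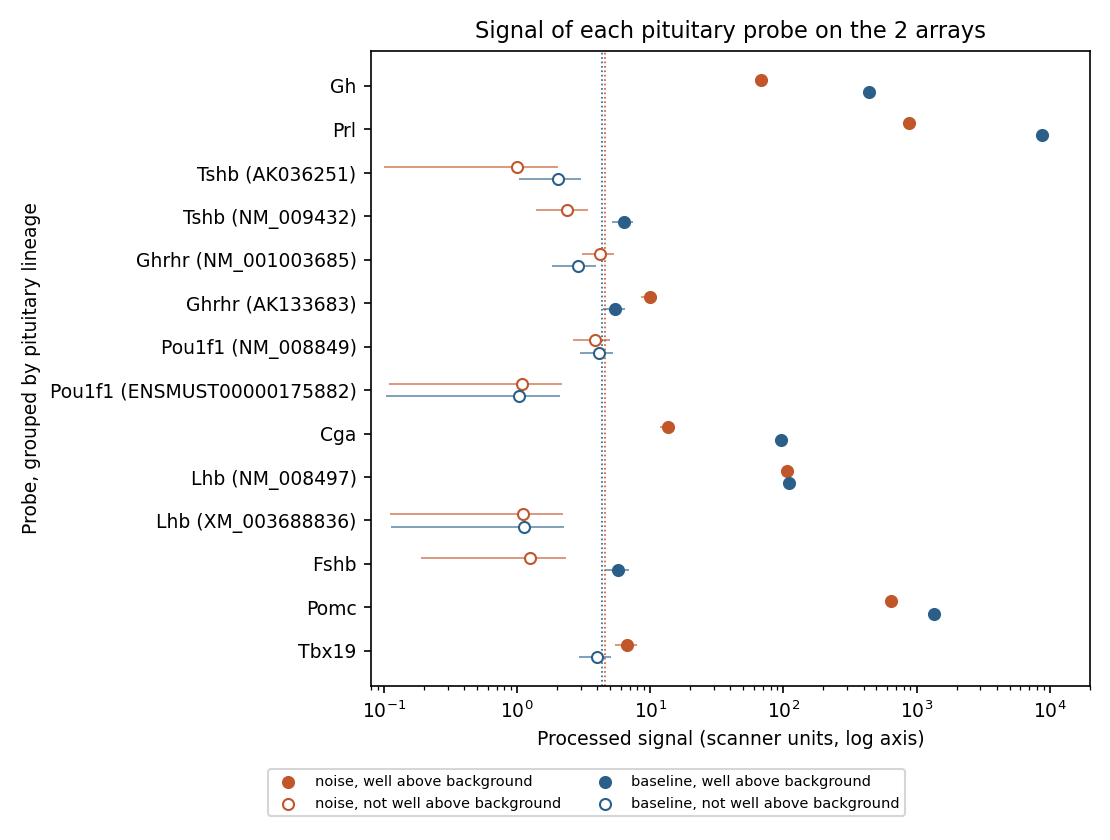
Processed signal (scanner units, log axis) of the 14 probes of the 10 pituitary genes, grouped by lineage, with the noise array above the baseline array in each row. Filled points were well above background, open points were not, horizontal bars are the scanner software's error estimate (shortened where it would reach 0), and dotted lines mark the lowest signal well above background on each array (4.58 for noise and 4.35 for baseline). Prl, Gh, Cga and Pomc lie to the left after noise, while the Lhb points nearly coincide at 107 for noise and 110 for baseline.

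Prl, which encodes the lactotroph hormone prolactin, had a signal of 882 ± 88.2 after noise and 8829 ± 883 at baseline. The noise level was thus 11.4-fold lower, a log2 ratio of -3.51 with a scanner error of 0.2. It had rank 6 from the lowest among all measured genes.

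Gh, which encodes growth hormone, is a relative of Prl in the same hormone family. Its signal was 67.6 ± 6.84 after noise and 441 ± 44.2 at baseline. Relative to each array's scale it was 7.42-fold lower after noise (log2 ratio -2.89, scanner error 0.21, rank 13 from the lowest). With the normexp background its log2 ratio was -2.11. The difference exceeded the SD of 0.27 between probes of a gene, a spread that holds no variation between animals.

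Tshb, the thyrotropin beta subunit gene, was close to the limit of measurement. Its intron-crossing probe gave 2.38 ± 0.998 after noise, not well above background, and 6.32 ± 1.13 at baseline, well above it. That bounds the noise level as at least 1.57-fold lower. A further Tshb probe runs in the opposite orientation on the genome (chr3:102583248-102583307, mm9) and was not well above background in either sample, at 1 after noise and 2.03 at baseline. Of the 548 genes measured at baseline alone, 17.2% had an at-least fold of 2 or more, and Tshb was not among them.

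Ghrhr encodes the somatotroph receptor for growth hormone-releasing hormone. Its probe with the TG run had signals of 9.93 ± 1.36 after noise and 5.45 ± 1.05 at baseline, 1.61-fold higher after noise (log2 ratio 0.68, scanner error 0.34). The intron-crossing Ghrhr probe (chr6:55334145-55334751, mm9) was not well above background in either sample, at 4.19 ± 1.11 on noise and 2.88 ± 1.04 on baseline. With the normexp background the ratio of the measured probe was -0.02. Both of its probes were dim, and the measured ratio rests on the probe with the TG run.

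Pou1f1 encodes the factor that somatotrophs, lactotrophs and thyrotrophs need. Neither of its probes was well above background on either array. The probe at chr16:65534256-65534315 had 3.83 ± 1.18 on noise and 4.12 ± 1.17 on baseline, and that at chr16:65525777-65525836 had 1.09 ± 1.09 on noise and 1.04 ± 1.05 on baseline (mm9). No fold is given, since the transcript was not detectable at this signal over background. Prl and Gh, known POU1F1 targets, were well above background on both.

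Cga, the common alpha subunit gene, had a signal of 13.6 ± 1.67 after noise and 96 ± 9.64 at baseline. It was 8.02-fold lower after noise (log2 ratio -3, scanner error 0.23, rank 10 from the lowest). The size of this value depended on how background was removed: with normexp it was -1.35, still past 2-fold.

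Lhb, the luteinizing hormone beta subunit gene, is a partner of Cga in gonadotrophs and did not follow it. Its intron-crossing probe had 107 ± 10.8 after noise and 110 ± 11.1 at baseline, a log2 ratio of -0.22 (scanner error 0.21), which lies within the SD of 0.27 between probes of a gene. The other Lhb probe (chr7:52674214-52674367, mm9), made from a predicted transcript, was not well above background in either sample, at 1.1 after noise and 1.12 at baseline.

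Fshb, the follicle-stimulating hormone beta subunit gene (chr2:106896400-106896459, mm9), had 1.25 ± 1.06 after noise, not well above background, and 5.76 ± 1.16 at baseline, well above it. The noise level was at least 1.43-fold lower. Like Tshb, it was bounded in the same direction as Cga, but under the 2-fold rule.

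Pomc, the proopiomelanocortin gene, had 640 ± 64 after noise and 1343 ± 134 at baseline. It was 2.38-fold lower after noise (log2 ratio -1.25, scanner error 0.2, rank 169 from the lowest). Its difference was smaller than those of the other 3 hormone genes past 2-fold. Its log2 ratio lay above that of Prl by 2.25, that of Cga by 1.75 and that of Gh by 1.64. With the main processing each of these exceeded the SD of 0.27 between probes. The distance from Cga depended on how background was removed. With normexp Pomc was at -1.17 and Cga at -1.35, closer together than that SD. Prl and Gh stayed farther from Pomc than that SD with normexp, Gh at -2.11. Pomc is also known to be transcribed outside the pituitary, in hypothalamic neurons and, at low levels, in skin.

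Tbx19, the corticotroph and melanotroph factor gene (chr1:167068819-167068878, mm9), had 6.7 ± 1.25 after noise, well above background, and 4 ± 1.09 at baseline, not well above it. The noise level was at least 1.36-fold higher. Among the 619 genes measured after noise alone, 5.33% had an at-least fold of 2 or more, and Tbx19 was not one of them. Its direction was thus opposite to that of Pomc, at signals next to the limit of measurement.

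**Figure D2:**
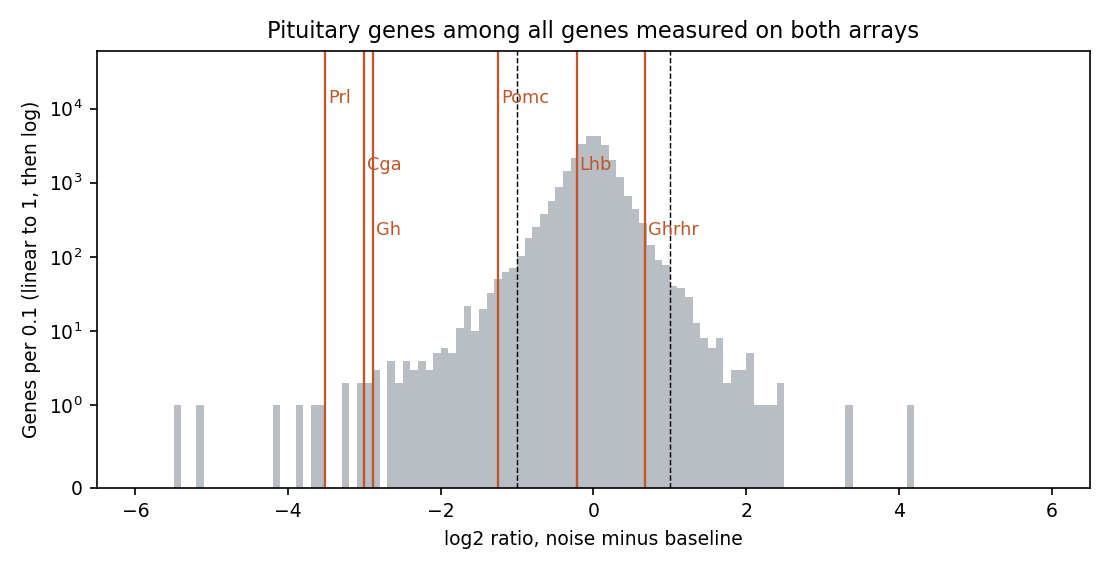
Number of genes per bin of 0.1 in log2 ratio (noise minus baseline; the vertical axis is linear up to 1 and logarithmic above) for the 26533 genes measured on both arrays, with the 6 measured pituitary genes as vertical lines and the 2-fold rule as dashed lines. Prl, Cga and Gh lie in the far lower tail between -3.51 and -2.89, Pomc at -1.25 just past the rule, and Lhb and Ghrhr inside it.

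Over the 6 measured members the median log2 ratio was -2.07, and 5 of 6 were below 0. Over all measured genes the median was -0.01, 52.5% were below 0, and the central 95% ran from -0.77 to 0.63. The member median moved to -2.89 with the stricter filter on dim probes, which removed Ghrhr, and to -1.32 with no filter.

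Promoter windows are shown for hormone genes of 3 lineages, since Prl, Cga and Pomc were lower together and Lhb was not. Each is the 250 bases before the start of transcription in RefSeq (GRCm38.p6), given 5' to 3' on the plus strand, and 8 of the 10 members matched an entry of the RefSeq table. The windows lie at chr13:27057320-27057569 (Prl), chr4:34893529-34893778 (Cga), chr12:3954695-3954944 (Pomc) and chr7:45420696-45420945 (Lhb). Capitals mark every match, on either strand, to TATNCAT, a core of POU1F1 sites, to TGACCTTG, a site of the gonadotroph factor SF-1, to GGTGTGA, a site of T-box factors such as TBX19, and to TATAAA, the TATA box.
Prl: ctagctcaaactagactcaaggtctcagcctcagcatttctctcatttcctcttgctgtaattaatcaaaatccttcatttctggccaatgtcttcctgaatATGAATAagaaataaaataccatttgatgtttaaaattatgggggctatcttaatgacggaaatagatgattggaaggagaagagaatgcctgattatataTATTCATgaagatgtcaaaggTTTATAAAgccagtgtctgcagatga
Cga: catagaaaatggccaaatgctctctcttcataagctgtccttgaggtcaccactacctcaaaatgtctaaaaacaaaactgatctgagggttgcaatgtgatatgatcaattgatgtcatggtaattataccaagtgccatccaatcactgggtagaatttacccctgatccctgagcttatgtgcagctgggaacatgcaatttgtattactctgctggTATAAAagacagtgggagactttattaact
Pomc: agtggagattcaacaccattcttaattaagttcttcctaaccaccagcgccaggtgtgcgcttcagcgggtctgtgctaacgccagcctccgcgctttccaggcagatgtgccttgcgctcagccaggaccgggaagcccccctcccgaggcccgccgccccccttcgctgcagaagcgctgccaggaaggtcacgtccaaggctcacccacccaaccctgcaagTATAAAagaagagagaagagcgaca
Lhb: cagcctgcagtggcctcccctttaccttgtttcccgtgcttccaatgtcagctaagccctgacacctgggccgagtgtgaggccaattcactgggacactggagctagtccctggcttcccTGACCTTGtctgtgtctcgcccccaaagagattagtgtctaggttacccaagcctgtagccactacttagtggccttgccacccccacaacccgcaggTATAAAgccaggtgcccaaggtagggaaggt

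In these windows the Prl promoter held 2 POU1F1 cores, starting at -148 and -47 from the start of transcription. The Lhb promoter held 1 exact match to the SF-1 letters, starting at -129. All 4 held a TATA box between -31 and -24, and that of Prl overlaps its own reverse complement. Among 32851 mouse promoter windows of the same length, 7.92% held the POU1F1 core, 1.33% the SF-1 site, 3.33% the T-box site and 12.4% the TATA letters. The T-box letters were in none of these 4 windows. Sites farther upstream, or with letters that differ from those searched, were not looked for. A missing match therefore does not show that a promoter lacks a site for TBX19, SF-1 or POU1F1. A match is a description of letters and not a bound site, and Gh and Ghrhr had no entry in the table.

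The labelled tissue was checked against markers of the cochlea. All 16, among them Coch, an abundant inner ear matrix gene, the tectorial membrane gene Tecta and the hair cell factor gene Pou4f3, were well above background on both arrays, with log2 ratios between -0.19 and 0.67 and a median of 0.25. Their summed scaled signal (each array's signals in units of its 75th percentile) was 324 on noise and 321 on baseline. The summed signal of the 6 measured pituitary members was 5.45 on noise and 38.9 on baseline. Prl was the brightest of them on both arrays, with unscaled signals of 882 on noise and 8829 on baseline. The difference between the member sums is therefore mostly that of Prl. The cochlea sums likewise rest mostly on bright genes such as Otos and Coch.

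**Figure D3:**
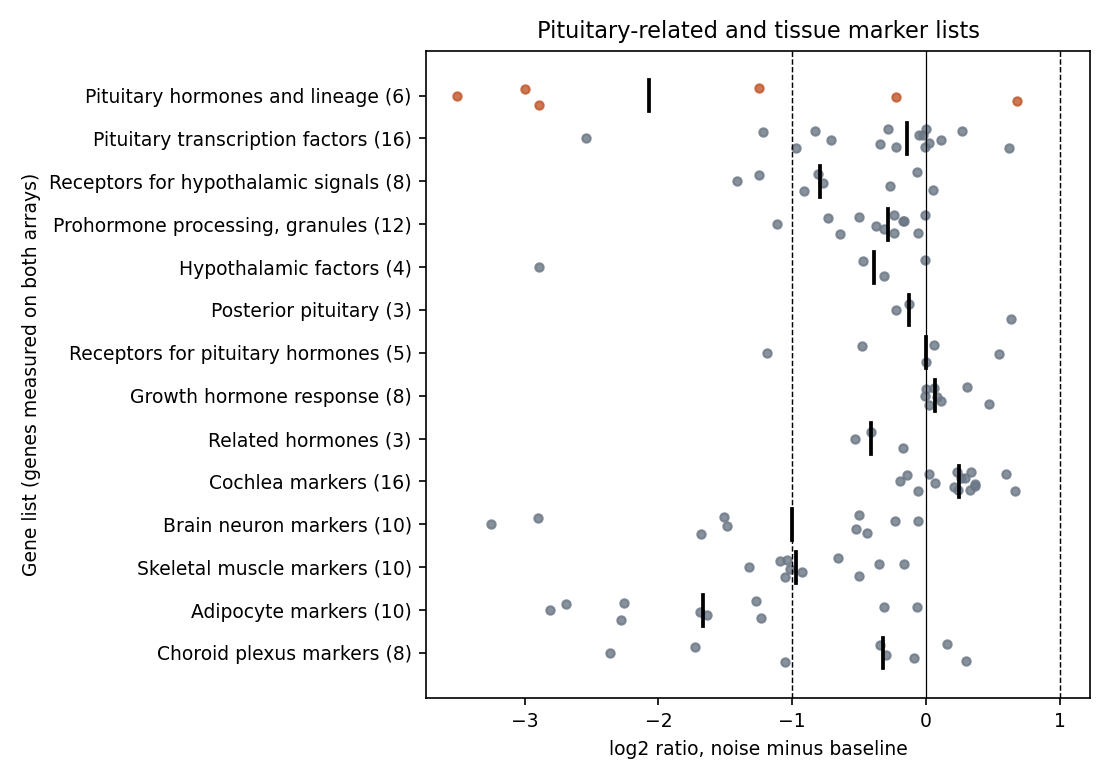
Log2 ratios (noise minus baseline) of the genes of each list measured on both arrays, with the number of such genes in brackets, a black bar at the list median and dashed lines at the 2-fold rule. The pituitary hormone and lineage genes, chosen with their ratios known, reach lowest and have a median of -2.07. The medians of adipocyte (-1.67), brain neuron (-1), skeletal muscle (-0.97) and hypothalamic signal receptor (-0.79) genes are also below 0. With the stricter filter on dim probes, not drawn here, the receptor median was -0.07 and the brain neuron median -0.61. The medians of the pituitary transcription factors (-0.14) and the cochlea markers (0.25) lie nearer to 0 as drawn.

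Transcription factors that pattern the pituitary were mostly similar on the arrays. Of 20 genes, 16 were measured, 11 of them below 0, with a median of -0.14 (0.09 with spike-in scaling), and 2 were at least 2-fold lower. These were Sox3, a factor of the pituitary primordium and of neural progenitors, at 12.4 on noise and 63.5 on baseline (log2 ratio -2.54), and Pitx1, a factor of all anterior pituitary lineages and of the oral ectoderm, at 16.6 after noise and 34 at baseline (-1.22). With the normexp background both were under 2-fold, at -0.96 for Sox3 and -0.5 for Pitx1, and with spike-in scaling Pitx1 lay at the rule, just under it (-1). Neurod1, a factor of corticotrophs and of neurons, was at -0.83, with signals of 71.4 after noise and 112 at baseline.

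Nr4a1, an immediate-early gene that also acts in corticotrophs, had the highest ratio of the list at 0.62, with 2958 after noise and 1690 at baseline. Most of the remaining factors lay closer to 0. Lhx3, a pituitary factor also known from hair cells, had signals of 249 on noise and 214 on baseline (-0.02), and Isl1 was at -0.01. Gata2, which acts in gonadotrophs and thyrotrophs, was at 0.11, Nr5a1, the gene of SF-1, at 0.02, and Foxl2, a gonadotroph factor also expressed in periocular mesenchyme, at 0 with signals of 4102 after noise and 3613 at baseline. Hesx1, Neurod4, Six3 and Six6 were not well above background in either sample.

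Of 12 genes for receptors through which the hypothalamus and other hormones act on the pituitary or its targets, 8 were measured, 7 of them below 0, with a median of -0.79 (-0.22 with the normexp background), and 2 were at least 2-fold lower. Both encode somatostatin receptors: Sstr1 had 6.52 on noise and 15.3 on baseline (-1.41), and Sstr3 had 13.8 after noise and 28.8 at baseline (-1.25). With normexp these were under 2-fold, at -0.34 for Sstr1 and -0.44 for Sstr3, and Sstr1 was also under it with no filter on dim probes (-0.79). Sstr5, a further somatostatin receptor gene, lay near 0, with 1137 after noise and 1158 at baseline (-0.07 over 2 probes). So did Crhr1, the corticotroph receptor for corticotropin-releasing hormone, with 402 after noise and 358 at baseline (0.05 over 2 probes). Mc2r, a melanocortin receptor gene, was lower, at -0.81 with dim signals of 5.34 after noise and 8.26 at baseline. With normexp Mc2r was at -0.21. Adcyap1r1, the receptor gene for the peptide PACAP, was at -0.91 from probes at -1.26 and -0.56. Gnrhr of gonadotrophs, Avpr1b of corticotrophs, Ghsr of somatotrophs and Sstr2 were not well above background in either sample. Drd2, the dopamine receptor of lactotrophs, was at -0.27 with signals of 6.62 after noise and 7.04 at baseline, and Trhr, the receptor of thyrotrophs and lactotrophs for thyrotropin-releasing hormone, at -0.77 with 7.21 after noise and 10.8 at baseline.

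Genes of prohormone cleavage and secretory granules, which endocrine cells and neurons share, were all measured, 12 of 12, and all below 0, with a median of -0.28 (-0.05 with spike-in scaling, under which the median of all genes was 0.21). Scg2, which encodes secretogranin II, was the 1 gene at least 2-fold lower, with 874 on noise and 1661 on baseline (log2 ratio -1.11, and -0.89 with spike-in scaling). Scg3 was at -0.73, Pcsk2, a prohormone convertase, at -0.64 from probes at -0.95 and -0.33, Pcsk1n at -0.5 and Pcsk1, the convertase that yields corticotropin from proopiomelanocortin, at -0.24.

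Hypothalamic releasing and inhibiting factors were sparse. Of 7 genes, 4 were measured, and Sst, which encodes somatostatin, an inhibitor of growth hormone release that many brain neurons also make, was the only one past 2-fold, at 59.2 on noise and 385 on baseline (-2.89). Gnrh1 was at -0.31 and Ghrh at -0.01 from probes at -0.34 and 0.32. Of the posterior pituitary hormones, Avp was not well above background in either sample and Oxt was at -0.22.

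Of 9 genes for receptors of the pituitary hormones, 5 were measured, with a median of 0 (0.23 with spike-in scaling). Ghr, the growth hormone receptor gene, was at 0.06 over 4 probes, and Mc5r, a melanocortin receptor gene, at 0. Mc3r, a melanocortin receptor gene of the brain, was at least 2-fold lower, with 19.9 on noise and 40.1 on baseline (-1.19), and was under 2-fold with normexp (-0.51) and spike-in scaling (-0.97). Lhcgr was at 0.55 from 1 measured probe of 3, with signals of 9.65 after noise and 5.8 at baseline. It was at -0.06 with normexp and at -0.13 with no filter on dim probes. Mc1r, Mc4r, Fshr and Tshr were not well above background in either sample.

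The prolactin receptor gene Prlr gave different answers by probe. Its 3 measured probes had signals of 6.68 on noise and 5.96 on baseline, of 25.3 after noise and 31 at baseline, and of 20.1 after noise and 79.5 at baseline, with log2 ratios of -0.02, -0.48 and -2.16. Their median was -0.48, and the value was -2.16 with the brightest probe or with the stricter filter. The choroid plexus of the brain is a known site of Prlr expression.

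Genes downstream of the growth hormone receptor were near 0 or above it. All 8 were measured, 7 above 0, with a median of 0.07 and none past 2-fold. Over all genes measured on both arrays, 52.5% were below 0, 1.25% were at least 2-fold lower and 0.611% at least 2-fold higher. Having none past 2-fold thus does not set these 8 genes apart. Igf1, the insulin-like growth factor gene, was at -0.01, Cish at 0, Stat5b at 0.31, and the feedback inhibitor gene Socs2 was highest at 0.47, with its 4 probes between 0.36 and 0.56.

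Many markers of other tissues near the cochlea were lower after noise together with Prl, Cga, Gh and Pomc. Over all genes measured on both arrays, 52.5% were below 0 and 1.25% were at least 2-fold lower. Adipocyte markers were below 0 in 10 of 10 measured genes and at least 2-fold lower in 8, with a median of -1.67 and a summed scaled signal of 30 on noise and 108 on baseline. They were led by Ucp1 (-2.81) and Cidea (-2.69), genes of brown fat, and Cidec (-2.28), a lipid droplet gene, while Plin1 was under 2-fold with normexp (-0.35). Brain neuron markers were below 0 in 10 of 10 and 2-fold lower in 5, with a median of -1 and a summed signal of 5.93 on noise and 11.9 on baseline. That median was -0.64 with normexp and -0.61 with the stricter filter on dim probes. Of the neuron markers, Gabra6 was under 2-fold with normexp (-0.86), and Tbr1 was not well above background in either sample. Skeletal muscle markers were below 0 in 10 of 10 and 2-fold lower in 5, with a median of -0.97 and a summed signal of 53.1 on noise and 75.1 on baseline. Of the 5, only the myoglobin gene Mb kept 2-fold under all 9 alternatives: with spike-in scaling Ckm was at -0.82, Myh1 at -0.87, Myh2 at -0.83 and Myh4 at -0.8, and the list median was -0.55 with normexp. Choroid plexus markers were below 0 in 6 of 8 and 2-fold lower in 3 (Ttr at -2.36, Folr1 at -1.73 and Kcne2 at -1.05). Their median was -0.32, and the others were Otx2 (-0.34), Kl (-0.3), Kcnj13 (-0.09), Sostdc1 (0.16) and Clic6 (0.3). The summed signal was 13.7 on noise and 36.1 on baseline. Ttr was the brightest of the list, with 1312 on noise and 6857 on baseline at its brightest probe. Only Ttr kept 2-fold under all 9 alternatives, since Folr1 was at -0.84 with normexp and Kcne2 at -0.82 with normexp and -0.83 with spike-in scaling. Their part in the lower hormone signals was not tested.

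Among 16234 measured genes with a standard symbol, those whose log2 ratio lay nearest to that of Prl were Slc32a1, a vesicular transporter gene of inhibitory neurons (-3.25), the epithelial keratin gene Krt15 (-3.22) and the crystallin gene Cryba2 (-3.85). Nearest to Gh were Sst (-2.89), Gad2, which encodes a GABA-forming enzyme (-2.9), and Ucp1, the brown fat uncoupling gene (-2.81, with 859 on noise and 5317 on baseline). On the noise array Krt15 (8.83), Cryba2 (6.43) and Gad2 (10.3) were close to the lowest signal well above background. Gad2 was at -1.07 with normexp and at -1.09 with no filter on dim probes. Likeness to Prl or Gh here is one of a ratio between 2 arrays only.

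The values of the measured members under the other processing settings are shown together because 1 of them, the normexp background, moved Gh, Cga and Ghrhr by more than the SD of 0.27 between probes of a gene.

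**Figure D4:**
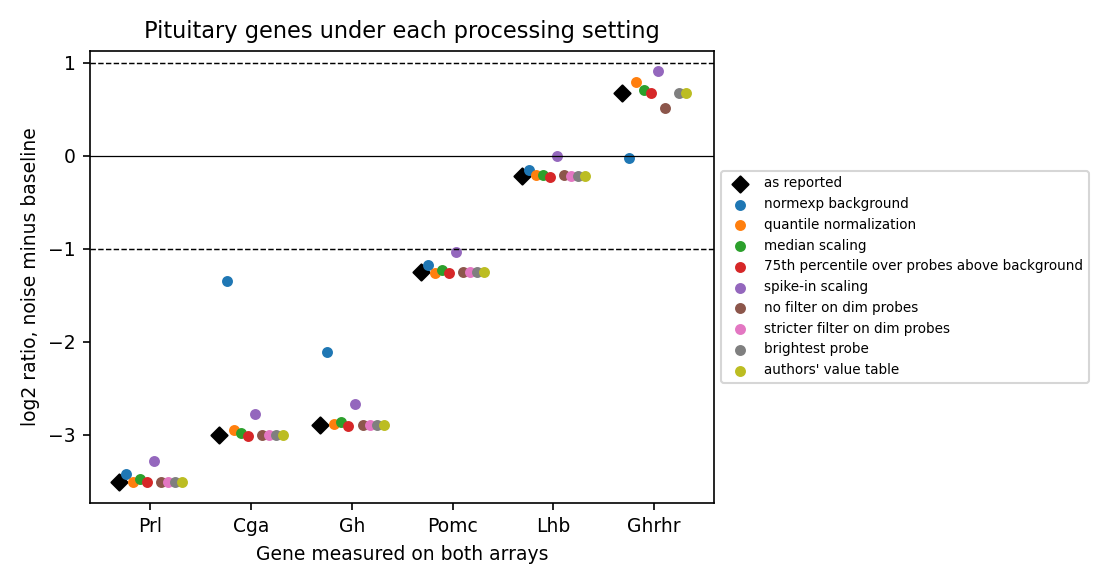
Log2 ratio (noise minus baseline) of the 6 measured pituitary genes as reported (black diamonds) and under 9 other processing settings (coloured points), with dashed lines at the 2-fold rule. Prl, Cga, Gh and Pomc stay at or below -1.03 under every setting shown, Cga ranges from -3.01 to -1.35, and Ghrhr has no value with the stricter filter.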

How the data were processed

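The authors deposited 1 scanner file per sample, holding spot intensity values, and a table of log2 values. Per the file headers, the arrays were 1-colour, shared a slide and a scan and were processed with Agilent Feature Extraction 11.5.1.1, with spatial and multiplicative detrending and surrogate values for spots near background switched on. The label on the cRNA was Cy3, per the labels. The authors' log2 table equalled log2 of each processed signal minus 8.3 (noise) or 8.12 (baseline), with column medians of -2.8 and -2.78, no centring by gene and no inverted direction.

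Here spots flagged as outliers and control spots were left out, log2 signals were averaged per probe, and each array's 75th percentile was subtracted. About 75% of probes were well above background (75.3% noise, 75.2% baseline), and no non-control spot was saturated. A gene took the median ratio of probes well above background on both arrays. For a gene above background on 1 array, the at-least fold divides its level there by the dim probe's level or, where that is higher, by the lowest level counted as above background on the dim array (the median over such probes of the gene). Since each group had 1 array, no p-value was computed, and precision is limited by the number of arrays. The gene step was tested on simulated data. Python 3.11.15 and, for the normexp background (offset 50), limma 3.58.1 in R 4.3.3 were used.

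The members and 13 further gene lists (135 entries, 133 on the array) were chosen with earlier results of these arrays known. Named were all members, most measured transcription factors and hormone receptors, other list genes past 2-fold, and the 3 genes nearest in ratio to Prl and to Gh. Other list genes, and those not above background, were named after their values were seen. Gene names are those of the array design, probe coordinates are mm9, and an annotation of that build was not used here. Some items that the rule would name are not reported here.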

Additional observations from a re-analysis of the deposited data

How the results depend on the processing

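The 9 alternatives were a normexp background, quantile normalization, scaling to the median, to detected probes or to 8 spike-in probes, no filter and a stricter filter on dim probes, the brightest probe, and the authors' value table. Prl, Cga, Gh and Pomc were at least 2-fold lower under all 9, with ranges of -3.51 to -3.28, -3.01 to -1.35, -2.9 to -2.11 and -1.26 to -1.03. With no filter 6 members were 2-fold lower, since Fshb and Tshb then had a ratio. With the normexp background Gh was at -2.11, Cga at -1.35, Ghrhr at -0.02 and the member median at -1.26. That median was -1.32 with no filter and -2.89 with the stricter filter, and the cause was not tested beyond the genes each filter adds or removes.

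Over all genes, 332 were 2-fold lower and 162 higher (32.8% of those past 2-fold higher). With normexp 74 were lower and 56 higher (43.1%), with spike-in scaling 186 and 351 (65.4%), with no filter 1296 and 672, and with the stricter filter 192 were lower. Spike-in scaling moved the median of all genes to 0.21. The cause of these shifts was not tested. No paired analysis was possible because noise and baseline had a single array each, and leaving out a replicate was likewise not possible. Signals near the lowest level well above background (4.58 on noise, 4.35 on baseline) limit Tshb, Fshb, Tbx19, Ghrhr and Pou1f1.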

Other observations

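The prolactin family of the mouse holds many placental relatives of Prl. The array carried 28 probes for 23 of them, and 5 probes were well above background on both arrays. Prl2c1 had 916 on noise and 794 on baseline (log2 ratio 0.02). Prl3b1 had 28.5 on noise and 33.9 on baseline (-0.43), Prl3d1 had 18 on noise and 23 on baseline (-0.53), Prl6a1 had 16.1 on noise and 11.7 on baseline (0.28), and Prl2a1 had 6.39 on noise and 5.02 on baseline (0.17). None of these 5 was 2-fold lower on the noise array, against 1.25% of the genes measured on both arrays, so this does not set them apart. A probe for Prl2c5 was well above background on the noise array alone, at 5.46 on noise and 2.05 on baseline. Of 2 further glycoprotein hormone genes, Gpha2 was at -0.41 and Gphb5 at -0.17. These genes were chosen after their values were seen.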
